A study of Mus musculus with 4 samples.

Results

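The genes described here are 8 classical markers of epithelial and mesenchymal cells, chosen by name: the cadherins *Cdh1*, *Cdh2*, *Cdh3* and *Cdh11*, the epithelial adhesion molecule *Epcam*, the intermediate filament *Vim*, and the catenins *Ctnnb1* and *Ctnnd1*. Of these 8 genes, 6 had a row among the 20197 genes measured, and *Cdh2* and *Cdh11* were not analysed here. RNA-sequencing compared 4T1 cells, a mouse mammary tumor line of wild-type genotype that is widely used as a model of metastatic breast cancer, that had high or low mitochondrial membrane potential (MMP). All cells had been stained with MitoSpy Red at 20 nM, a dye that accumulates in mitochondria according to their membrane potential, and the brightest and dimmest 5% were sorted as high and low MMP cells. The 4 libraries, 2 per group, each came from 100000 cells of this single cultured line. The labels do not say whether the replicates were separate cultures, while the paper counts 2 independent experiments or tumors for this comparison. With 2 per group, p-values measure only the spread between these samples, part of which may be technical.

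Cadherins are transmembrane proteins that join neighbouring cells at adherens junctions by binding a cadherin of the same kind on the other cell. Inside the cell, β-catenin and p120-catenin bind the cadherin tail, and α-catenin links the complex to actin. In epithelial-to-mesenchymal transition (EMT), epithelial cells typically lose E-cadherin and Epcam and gain N-cadherin and vimentin, and tumor cells can also hold both kinds of marker in a partial state. β-catenin has a second role as the transcriptional coactivator of the Wnt pathway.

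Values are normalized reads, that is, the reads of a gene after each library was scaled to a total of 20000000. Their depth was 26395015 and 23899813 reads for high and 22941960 and 22591970 for low MMP cells, so both high MMP libraries were the deeper ones. Of 13 mammary epithelial markers, 12 had a row, and their summed level was 71090 and 51757 in high MMP cells and 56650 and 65084 in low MMP cells, with *Krt5* not analysed here. Most listed markers of other cell types had no row or few reads, with *Pdgfra*, *Cd14* and *Cd68* as exceptions. Of 6 endothelial markers 2 had a row, with sums of 1.74 to 6.20 in the 4 libraries. Of 8 leukocyte markers 3 had a row, with sums of 380 and 376 in high and 373 and 377 in low MMP cells. Within that sum the myeloid genes *Cd14* had 224 to 320 and *Cd68* 59.9 to 149, and the pan-leukocyte gene *Ptprc* 0 to 1.77. Of 8 fibroblast markers 5 had a row, with sums of 338 and 377 in high and 549 and 608 in low MMP cells. Nearly all of the fibroblast sum was *Pdgfra*, a growth factor receptor, while the collagen gene *Col1a2* had 0 to 3.03. The high MMP libraries also differed from each other with gene length. Where the mean level reached at least 100, the median of high MMP 1 minus high MMP 2 on the log2 scale was 0.21 for genes with under 2 kb of exon and -0.15 for genes with 6 kb or more. A short list of 15 G2/M-phase genes, chosen after earlier results were known, summed to 107300 and 115553 in high and 67759 and 70508 in low MMP cells. The largest part was *Top2a*, with 37134 and 38824 in high and 18715 and 20473 in low MMP cells. Both high MMP libraries were above both low ones for 13 of the 15 genes and below for 1, beside 13.5% and 24.5% of all genes. *Ccnb2* and *Mki67* were lower on average in high MMP cells, by -0.13 and -0.11 on the log2 scale. A list of 15 S-phase genes chosen the same way summed to 51629 and 39769 in high and 61352 and 63230 in low MMP cells. The part of depth, gene length and cell cycle phase in the differences below was not tested.

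None of the 6 measured genes reached an adjusted p under 0.05 between high and low MMP cells in limma, where 0 of 20197 genes (0%) passed. This adjusted threshold cannot decide whether a gene changed, because in test data with known changes limma recovered 0 of 100 genes changed 2-fold. Limma also recovered 0 of 100 genes changed 4-fold there, while edgeR recovered 71 and 100 and DESeq2 96 and 100. The changed genes of the test data all had a mean of at least 100 normalized reads. These rates therefore do not describe *Cdh3*, with a mean of 30.1, or changes smaller than 2-fold. edgeR's quasi-likelihood test on the recovered reads also called 0 of all genes, and DESeq2 called 118 of all genes and 0 of the 6. At an unadjusted p under 0.05, limma had 2 of the 6, *Cdh1* and *Cdh3*, against 9.96% of all genes. At the same level edgeR had 1 of the 6, *Cdh3*, against 7.05% of all genes. The levels in the 2 high MMP libraries were both below those in the low MMP libraries for *Cdh1* and *Ctnnb1*, a pattern seen in 24.5% of all genes. They were both above for *Cdh3* and *Ctnnd1*, as in 13.5% of all genes. For *Epcam* and *Vim* the groups overlapped. The plot of levels by library shows these 3 patterns.

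**Figure D1:**
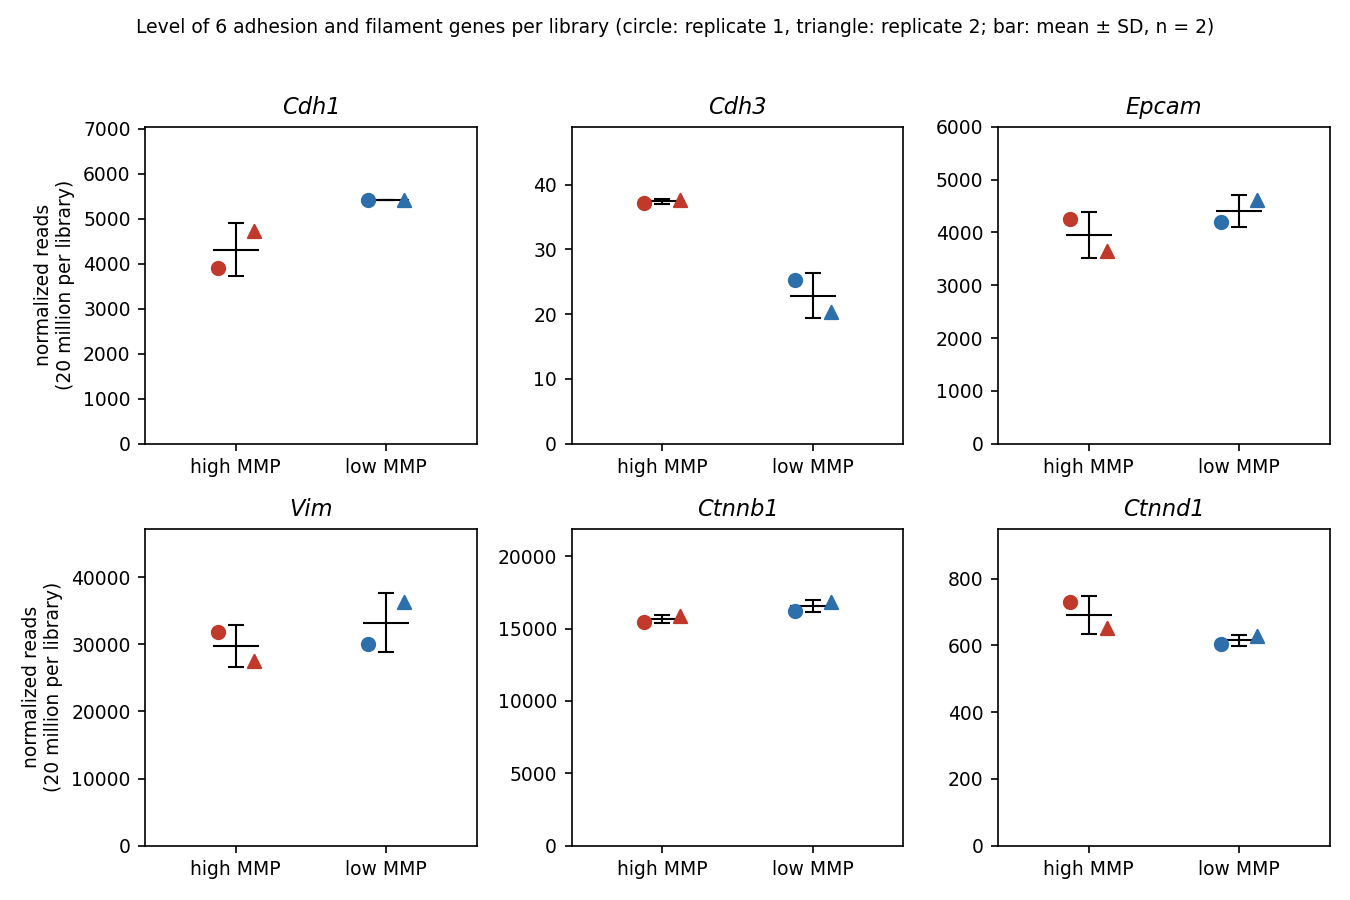
Normalized reads (y axis, from 0) of *Cdh1*, *Cdh3*, *Epcam*, *Vim*, *Ctnnb1* and *Ctnnd1* in the 2 high MMP (red) and 2 low MMP (blue) libraries. Circles are replicate 1, triangles are replicate 2, and bars are the mean ± SD (n = 2). *Cdh1* and *Ctnnb1* lie lower and *Cdh3* and *Ctnnd1* higher in both high MMP libraries, while the groups overlap for *Epcam* and *Vim*.

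First, the epithelial cadherins were examined. *Cdh1* encodes E-cadherin, the defining cadherin of epithelial adherens junctions (ENSMUSG00000000303, GRCm38 chromosome 8, 106603351 to 106670246, forward strand, protein-coding). High MMP cells had 3903 and 4726 normalized reads of it, low MMP cells 5421 and 5426. Both high MMP libraries were lower, the low MMP libraries were nearly identical, and high MMP 1 was the lowest of the 4. The mean was 4315 ± 582 (SD, n = 2) for high and 5423 ± 3.67 (SD, n = 2) for low MMP, which is 0.796-fold. The difference on the log2(value + 1) scale was -0.34 (SE 0.12, 95% interval -0.67 to -0.0021), with an unadjusted p of 0.0491 and an adjusted p of 0.498 in limma. The size of the difference depended on the high MMP library, being -0.47 without high MMP 2 and -0.20 without high MMP 1. In edgeR the difference was -0.29 with an unadjusted p of 0.0682, so *Cdh1* was not separated from the replicate spread by that test.

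*Cdh3* encodes P-cadherin, which in the mammary gland marks myoepithelial or basal cells (ENSMUSG00000061048, chromosome 8, 106510891 to 106557297, forward strand, protein-coding). It is the left-hand neighbour of *Cdh1*, with 46053 bases between the gene models. High MMP cells had 37.1 and 37.7 normalized reads of it, low MMP cells 25.3 and 20.4. The high MMP libraries were both higher, the opposite direction to its neighbour. These values rest on 49 and 45 reads in the high and 29 and 23 reads in the low MMP libraries. The exact 95% Poisson interval, which covers counting error only, ran from 36.3 to 64.8 reads for high MMP 1 and from 19.4 to 41.6 for low MMP 1, so these overlapped. They are for single libraries, in reads not scaled for depth, and their overlap is not a test of the difference. The log2 difference was 0.70 (SE 0.24, interval 0.04 to 1.35), the largest of the 6 in size, with an unadjusted p of 0.0420 and an adjusted p of 0.474 in limma. edgeR gave 0.75 with an unadjusted p of 0.0341 and an adjusted p of 0.689, while the unadjusted p in DESeq2 was 0.143.

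*Epcam* encodes a cell-surface glycoprotein of epithelial cells that mediates adhesion and is cut to release a signalling tail (ENSMUSG00000045394, chromosome 17, 87635979 to 87651129, forward strand, protein-coding). It had 4261 and 3647 normalized reads in high and 4198 and 4619 in low MMP cells. High MMP 1 lay between the low MMP libraries, and high MMP 2 was the lowest. The mean was 3954 ± 434 (SD, n = 2) for high and 4409 ± 298 (SD, n = 2) for low MMP, and the log2 difference was -0.16 (SE 0.12, interval -0.48 to 0.16, adjusted p 0.765 in limma). The difference between the groups was smaller than that between the high MMP libraries, which was 0.22 on the same scale. It rested on single libraries, being -0.05 without high MMP 2, -0.09 without low MMP 2 and -0.27 without high MMP 1.

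*Vim* encodes vimentin, the intermediate filament of mesenchymal cells, and was the most abundant of the 6 (ENSMUSG00000026728, chromosome 2, 13573927 to 13582826, forward strand, protein-coding). It had 31896 and 27526 normalized reads in high and 30084 and 36343 in low MMP cells. The groups overlapped, with low MMP 2 the highest and high MMP 2 the lowest library. The mean was 29711 ± 3090 (SD, n = 2) for high and 33213 ± 4426 (SD, n = 2) for low MMP. Its log2 difference was -0.16 (SE 0.17, interval -0.63 to 0.32, adjusted p 0.855 in limma). This value rested on single libraries too, being -0.02 without low MMP 2, -0.05 without high MMP 2, -0.26 without high MMP 1 and -0.29 without low MMP 1. The interval runs from 0.645-fold to 1.245-fold of the low MMP level.

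The epithelial *Epcam* and the mesenchymal *Vim* did not move in opposite directions across the 4 libraries. Both were highest in low MMP 2, followed by high MMP 1, low MMP 1 and high MMP 2. The ratio of *Vim* to *Epcam* within a library was therefore nearly constant, at 7.48 and 7.55 in high and 7.16 and 7.87 in low MMP cells. Over 12902 genes with a mean of at least 10, same-numbered libraries also deviated from their group means in opposite directions (r = -0.42). A shared order of libraries is thus not particular to this pair, and how many genes have it was not tested. The ratio of *Vim* to *Cdh1*, a common readout of mesenchymal against epithelial state, was 8.17 and 5.82 in high and 5.55 and 6.70 in low MMP cells. The groups overlapped, and on the log2 scale its mean was 2.79 ± 0.35 (SD, n = 2) for high and 2.61 ± 0.19 (SD, n = 2) for low MMP. High MMP 1 had the highest of these ratios, and without it the difference turned from 0.18 to -0.07. With 2 samples per group an exact two-sided permutation test of a single ratio cannot go below 0.333, so ratios are given as a description.

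**Figure D2:**
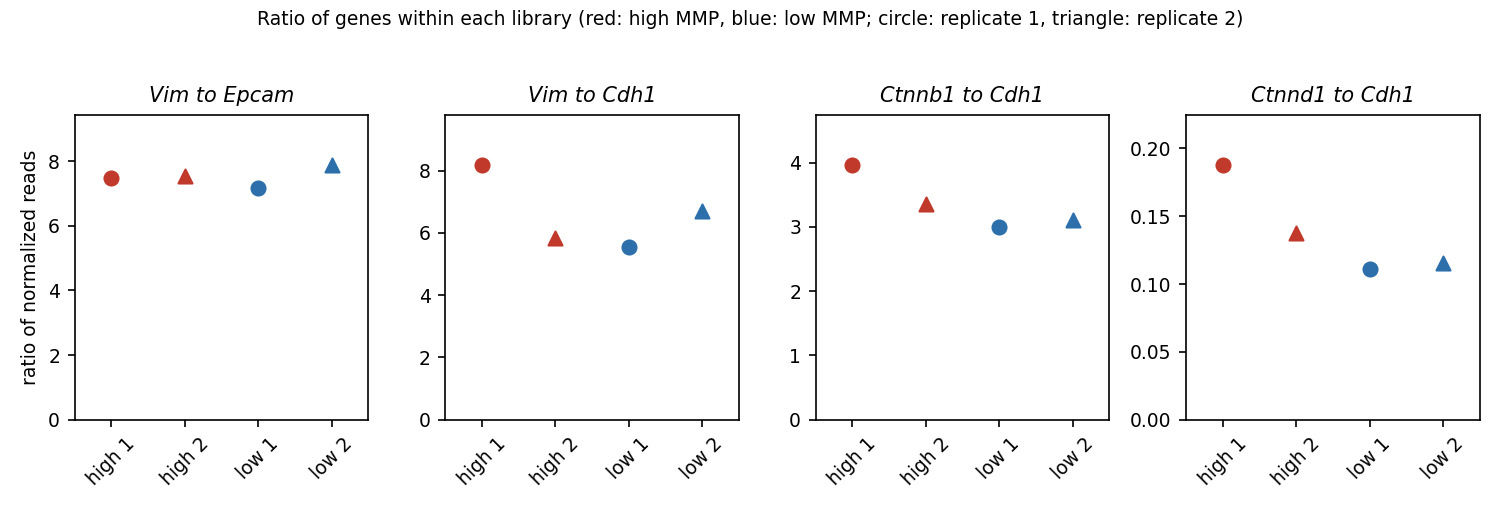
Ratio of normalized reads (y axes, from 0) of pairs of the genes within each library, for high MMP (red) and low MMP (blue), with circles for replicate 1 and triangles for replicate 2. *Vim* to *Epcam* stays between 7.16 and 7.87, *Vim* to *Cdh1* overlaps between the groups, and both catenins relative to *Cdh1* are higher in the 2 high MMP libraries, where *Cdh1* itself was lower.

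The 250 bases before the transcription starts of *Epcam* and *Vim* are shown side by side, from RefSeq on GRCm38.p6. Whether the 2 genes share any regulation was not tested. The *Epcam* window lies at chr17:87635729-87635978 and the *Vim* window at chr2:13574061-13574310, both on the forward strand. Capitals mark 2 motifs searched on both strands, the E-box CAGGTG, which EMT repressors of the Snail and Zeb families are known to bind, and the TATA sequence TATAAA.
Epcam: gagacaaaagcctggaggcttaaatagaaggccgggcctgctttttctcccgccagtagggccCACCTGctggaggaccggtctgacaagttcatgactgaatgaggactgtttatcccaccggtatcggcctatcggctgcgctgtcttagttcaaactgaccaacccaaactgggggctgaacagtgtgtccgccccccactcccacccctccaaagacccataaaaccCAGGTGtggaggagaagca
Vim: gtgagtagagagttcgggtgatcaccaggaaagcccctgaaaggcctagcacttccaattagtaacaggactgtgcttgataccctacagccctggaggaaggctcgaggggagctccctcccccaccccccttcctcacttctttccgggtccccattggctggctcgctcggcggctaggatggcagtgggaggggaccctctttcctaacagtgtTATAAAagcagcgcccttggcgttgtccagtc
The *Epcam* window held CAGGTG at 2 places, starting 187 and 19 bases before the start (the first is read as CACCTG on this strand), and no TATAAA. The *Vim* window held TATAAA once, starting 32 bases before the start, and no CAGGTG. Of 32851 promoter windows of this length, 17.2% held CAGGTG and 12.4% held TATAAA, so neither motif is rare. A match is only a match of letters, and these windows show no shared motif among those searched. No RefSeq promoter window was used for *Cdh1* or *Cdh3*.

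Next, the catenins that bind cadherin tails were examined. *Ctnnb1* encodes β-catenin (ENSMUSG00000006932, chromosome 9, 120929216 to 120960507, forward strand, protein-coding). It had 15444 and 15860 normalized reads in high and 16239 and 16856 in low MMP cells. Although the groups did not overlap, the means of 15652 ± 294 and 16548 ± 436 (SD, n = 2 each) differed by only -0.08 on the log2 scale (SE 0.11, interval -0.37 to 0.21, adjusted p 0.891 in limma). The median of all genes was -0.04 on this scale. The gene model overlaps *Ulk4* on the opposite strand, which had a mean of 94.7 normalized reads. Reads from both cannot be told apart if strand was not used in counting, which is not stated.

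*Ctnnd1* encodes p120-catenin, which stabilizes cadherins at the membrane (ENSMUSG00000034101, chromosome 2, 84600071 to 84650765, reverse strand, protein-coding). It had 731 and 651 normalized reads in high and 603 and 628 in low MMP cells. The high MMP libraries were both above the low ones, but high MMP 2 exceeded low MMP 2 by little. The means were 691 ± 56.7 and 615 ± 17.2 (SD, n = 2 each), and the log2 difference was 0.16 (SE 0.10, interval -0.10 to 0.43, adjusted p 0.699 in limma). It was 0.08 without high MMP 1 and 0.25 without high MMP 2. The catenins thus lay in opposite directions, neither past the threshold.

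Relative to *Cdh1* in the same library, both catenins were higher in high MMP cells. The ratio of *Ctnnb1* to *Cdh1* was 3.96 and 3.36 in high and 2.995 and 3.11 in low MMP cells. The ratio of *Ctnnd1* to *Cdh1* was 0.188 and 0.138 in high and 0.111 and 0.116 in low MMP cells. Neither ratio overlapped between the groups, and both share the low *Cdh1* value of high MMP 1. *Cdh1* was lower in both high MMP libraries, so any gene that was less reduced has a higher ratio there. *Ctnnb1* itself was lower in high MMP cells, so its ratio shows no rise of the catenin. How many of all genes have such a ratio to *Cdh1* was not tested. These ratios compare reads without regard to length and serve only to compare libraries.

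**Figure D3:**
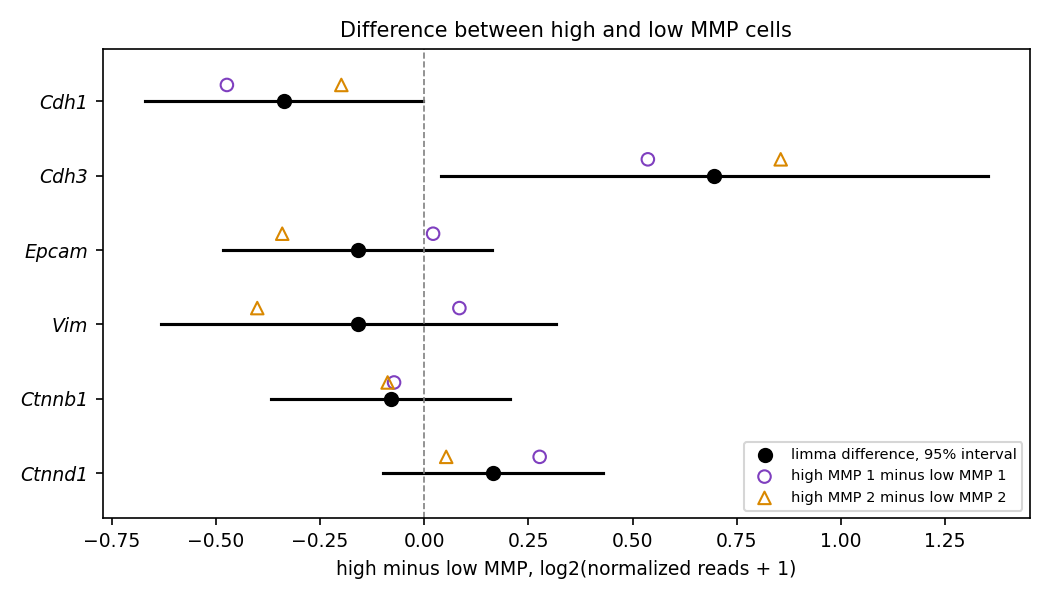
Difference of high minus low MMP cells on the log2(normalized reads + 1) scale (x axis) for each gene. Filled points are limma estimates with their 95% intervals, open circles are high MMP 1 minus low MMP 1, and open triangles are high MMP 2 minus low MMP 2. The intervals of *Cdh1* (-0.67 to -0.0021) and *Cdh3* (0.04 to 1.35) exclude 0, that of *Cdh1* barely, and the other 4 include 0.

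The 6 genes differed far more from each other than between the groups. Per kilobase of exon, the mean level over the 4 libraries was 6633 normalized reads for *Vim*, 3101 for *Ctnnb1*, 1905 for *Epcam*, 1064 for *Cdh1*, 89.3 for *Ctnnd1* and 6.87 for *Cdh3*. On this length the libraries of neighbouring genes did not overlap, for example with a lowest library of 1661 per kilobase for *Epcam* and a highest of 1186 for *Cdh1*. With the median transcript length instead, *Vim* (20367 to 26891) and *Ctnnb1* (19426 to 21203) overlapped, so whether these neighbours are separated depends on the length used. All 4 libraries thus held abundant *Vim* beside abundant *Epcam* and *Cdh1*. These are bulk samples, so cells that carry both kinds of transcript cannot be told apart from a mixture of cells, nor fewer cells from less RNA per cell.

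**Figure D4:**
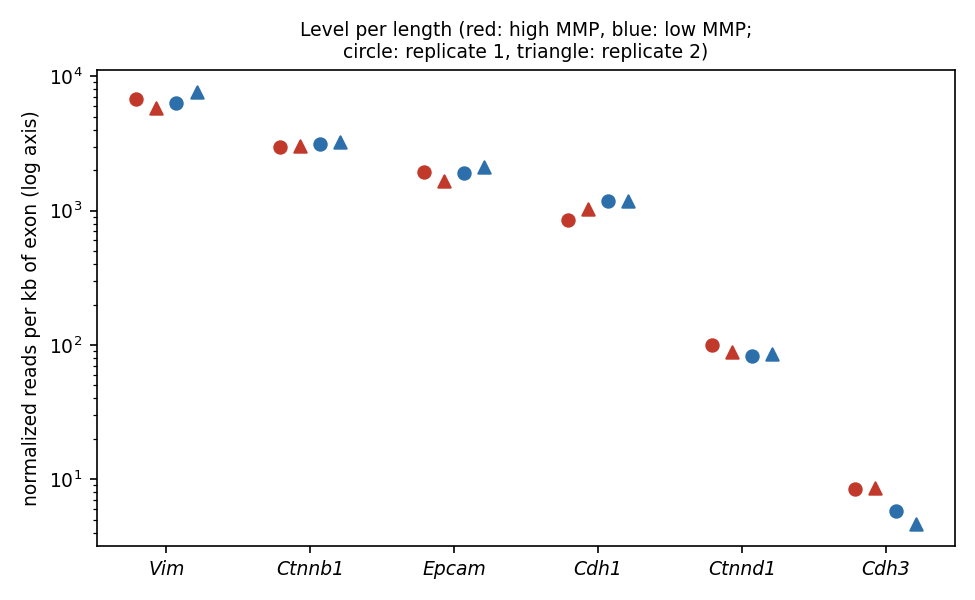
Normalized reads per kilobase of exon (y axis, log scale) of the 6 genes in each library, with high MMP in red, low MMP in blue, circles for replicate 1 and triangles for replicate 2. The order from *Vim* (mean 6633) to *Cdh3* (mean 6.87) is the same in all 4 libraries, and the groups lie close together at every step.

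To place these genes, lists of related genes were read from the same fit. No gene of any list passed the adjusted threshold in limma or edgeR, which both called 0 of all genes. Calls of list genes in DESeq2 are not given here. The counts of an unadjusted limma p under 0.05 in each list stand beside 9.96% of all genes. List medians are over genes with a mean of at least 10, for which the median of all genes was -0.03. Among other cadherins, 17 of 38 listed genes had a row, and 2 had an unadjusted limma p under 0.05, both with higher values in high MMP cells. *Cdh17*, liver-intestine cadherin, had 112 and 118 normalized reads in high and 61.0 and 62.0 in low MMP cells, a log2 difference of 0.89 (SE 0.15, adjusted p 0.472 in limma). *Pcdh9*, the other of these 2 and named outside the naming rule, rested on 5 reads in each high and 1 read in each low MMP library. The largest difference downward was -0.67 (SE 0.34) for *Celsr2*, a cadherin of planar cell polarity, with 269 and 516 against 644 and 544. The median of the list was -0.28. Of its 10 genes with such a mean, 7 were lowest in high MMP 1, as *Cdh1* was. High MMP 1 was the lowest library for 37.3% of all 12902 genes at this level. The giant cadherin *Fat1*, for example, chosen after its values were seen, had 3649 normalized reads in high MMP 1 and 5340 to 5746 in the other 3 libraries.

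Desmosomes are the second cadherin-based junction of epithelia. Of 15 listed genes 11 had a row, and 1 had an unadjusted p under 0.05, *Ppl*, which encodes the plakin periplakin. It had 905 and 806 normalized reads in high and 1023 and 1307 in low MMP cells (log2 difference -0.44, SE 0.15). The largest upward difference was 0.36 (SE 0.17) for the plakophilin *Pkp1*. The desmosomal cadherin *Dsg2*, also chosen after its values were seen, had 1004 and 1464 in high and 1599 and 1500 in low MMP cells. The median of the list was -0.10.

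Partners of the cadherin-catenin complex at adherens junctions showed small differences. Of 27 listed genes 22 had a row, 0 had an unadjusted limma p under 0.05, 0 had an unadjusted edgeR p under 0.05, and the median difference was 0.01. The extremes were 0.26 (SE 0.21) for the LIM protein *Ajuba* and -0.23 (SE 0.14) for the adhesion receptor *Nectin1*. The α-catenin gene *Ctnna1* had 10110 and 8466 normalized reads in high and 8596 and 8825 in low MMP cells, and the plakoglobin gene *Jup*, a close relative of β-catenin, had 2275 and 1855 against 2085 and 2182. Both genes were chosen after their values were seen. In both, the groups overlapped.

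Genes of cadherin turnover include proteases that shed cadherins and trafficking proteins that recycle them. Of 29 listed genes 28 had a row, with a median difference of 0.01, and 1 gene in each direction had an unadjusted p under 0.05. *Rab11b*, a GTPase of recycling endosomes, had 1782 and 1731 normalized reads in high and 1336 and 1423 in low MMP cells (log2 difference 0.35, SE 0.08). *Numbl*, an endocytic adaptor, had 53.0 and 55.2 in high and 84.6 and 76.1 in low MMP cells (-0.56, SE 0.17).

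The list of β-catenin degradation and transcription partners had 30 of 31 genes in the table and a median of -0.05. Of these, 2 genes in each direction had an unadjusted p under 0.05. Among the DNA-binding partners of β-catenin, *Tcf7l2* had 299 and 326 normalized reads in high and 256 and 251 in low MMP cells (0.30, SE 0.10), while *Tcf7* had 336 and 341 in high and 437 and 449 in low MMP cells (-0.38, SE 0.09). The kinase *Gsk3b*, which marks β-catenin for degradation, and the coactivator *Bcl9* were the other 2 with a small p. They are named outside the naming rule and had differences of 0.27 and -0.33.

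Around *Epcam*, all 16 listed partners and proteases had a row, and the median difference was -0.04. Of these, 1 gene had an unadjusted p under 0.05 with higher and 2 with lower values in high MMP cells. *Fhl2*, a LIM protein that joins the released Epcam tail in the nucleus, had 2027 and 1837 normalized reads in high and 1520 and 1544 in low MMP cells (0.33, SE 0.09). The membrane protease *Prss8* had 133 and 125 in high and 179 and 221 in low MMP cells (-0.62, SE 0.16).

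Among non-keratin filament genes and vimentin partners, 20 of 24 had a row. *Aurkb*, a mitotic kinase that phosphorylates vimentin, had 2885 and 2829 normalized reads in high and 1435 and 1681 in low MMP cells (0.88, SE 0.11). The mitotic kinase *Plk1*, which had the other small p of this list upward, differed by 0.63. Both are also members of the G2/M-phase list given above. *Nefh* had 0 reads in both high and 4 and 3 reads in the low MMP libraries, too few for a fold. *Synm* had the largest difference downward at a mean of at least 10, -0.44 (SE 0.44), and the median of the list was -0.03.

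The mammary epithelial markers had a median difference of 0.03, and 1 of 12 had an unadjusted p under 0.05. This was the basal keratin *Krt14*, with 1368 and 1529 normalized reads in high and 1226 and 1100 in low MMP cells (0.32, SE 0.10). *Elf3*, an epithelial transcription factor, had the largest difference downward (-0.14, SE 0.25). High MMP 2 was the lowest library for 7 of the 12 markers, as for *Epcam* and *Vim*, beside 29.3% of all genes with a mean of at least 10. Among the markers of other cell types, *Pdgfra* had 319 and 363 in high and 536 and 589 in low MMP cells (-0.72, SE 0.11), and the myeloid genes *Cd14* and *Cd68* differed by 0.12 (SE 0.21) and -0.35 (SE 0.50).

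**Figure D5:**
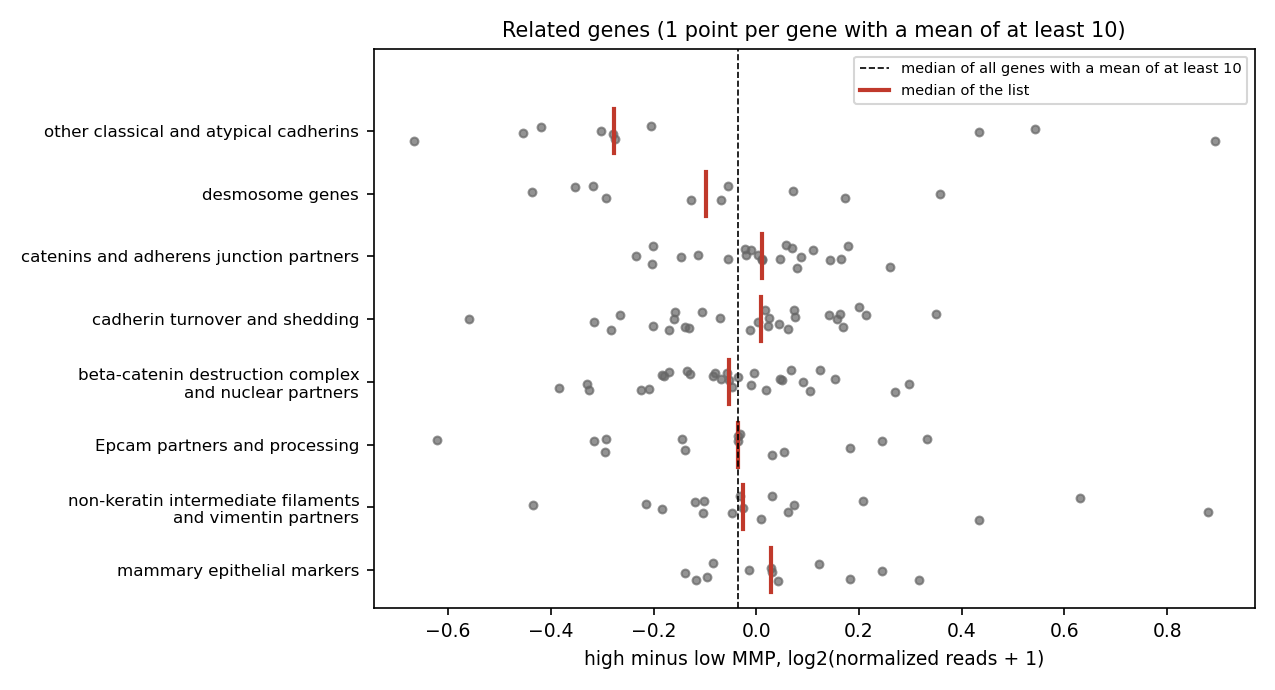
Difference of high minus low MMP cells on the log2(normalized reads + 1) scale (x axis) for the genes of 8 related lists with a mean of at least 10, 1 grey point per gene (vertical scatter has no meaning). Red bars are list medians and the dashed line is the all-gene median at this level (-0.03). Most points lie near the dashed line, and no gene passed the adjusted threshold in limma, which called 0 of all genes.

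Finally, the genes whose level across the 4 libraries was most like that of a member were identified by the root mean square distance between centred log2 values, among 9998 other genes with a mean of at least 100. For *Cdh1* these included *N4bp2* at 0.013 and *Tex9* at 0.014. *N4bp2* had 639.5 and 771 normalized reads in high and 867 and 876 in low MMP cells. For *Epcam* the nearest were *Slain1*, *Zfp780b* and *Hoxa5*, at 0.0087 to 0.012. For *Vim* they were *Snn*, *Wdr6* and *Top3a*, at 0.0070 to 0.017. With only 4 libraries, close profiles are common among so many genes. *Epcam* ranked 84 by closeness to *Vim*, at 0.048, while *Cdh1* ranked 6709, at 0.217.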

How the data were processed

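RNA from sorted 4T1 cells (200 ng per sample) was prepared with a stranded mRNA kit. The authors aligned reads to the mouse transcriptome (GRCm38/mm10) with STAR, and HTSeq is among the tools of the submitters' processing notes. Versions, annotation release and strand setting are not given in the sources used here. Scaling by library total and removal of genes detected in under 2 samples preceded deposition by the authors, so the deposited values are a normalized signal per gene. Per library all values were whole multiples of 1 step (100.0% within a tolerance of 0.01), from which whole reads were recovered.

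Identifiers were matched to GENCODE release M21 (19993 of 20197). High and low MMP were compared on log2(value + 1) using limma 3.58.1 (trend) in R 4.3.3, adjusted by Benjamini-Hochberg over all genes at 0.05. A fold on this scale understates changes of low genes. edgeR 4.0.16 (quasi-likelihood, TMM) and DESeq2 1.42.0 on recovered reads, other scalings, pseudocounts, filters, a replicate block and leaving out each library were alternatives. The fits were tested on simulated data, in which limma over all genes recovered none of the changed genes after adjustment, so intervals and the other tools are given beside it. With limma on genes with a mean of at least 10, 98 of 100 genes changed 2-fold and 100 of 100 changed 4-fold were recovered there. All changed genes in the simulation had a mean of at least 100, so lower genes and smaller changes were not covered. On the measured libraries that filter called 0 of 12902 genes. The genes and lists were chosen with earlier results of these data known. Named beyond the 8 genes were the largest difference in each direction per list (mean of at least 10) and the 3 nearest profiles of *Cdh1*, *Epcam* and *Vim*. Genes named outside this rule are marked, and some genes that the rule or a count covers are not reported here.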

Additional observations from a re-analysis of the deposited data

How the results depend on the processing

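None of the 6 genes was called under any of the 18 alternatives, and each kept its direction in all 18. All 18 reuse the same 4 libraries, so a kept direction is not independent evidence. Between libraries of the same replicate number, only 4 of the 6 genes kept their direction. *Epcam* differed by 0.02 for number 1 and -0.34 for number 2, and *Vim* by 0.08 and -0.40. With the 4 libraries, the log2 difference ran from -0.34 to -0.29 for *Cdh1*, 0.61 to 0.82 for *Cdh3*, -0.17 to -0.11 for *Epcam*, -0.17 to -0.12 for *Vim*, -0.10 to -0.04 for *Ctnnb1* and 0.16 to 0.21 for *Ctnnd1*. Leaving out each library gave -0.47 to -0.20, 0.55 to 0.85, -0.27 to -0.05, -0.29 to -0.02, -0.11 to -0.05 and 0.08 to 0.25 in the same order. With 1 library left in a group, that library is assumed to vary like the other group. The adjusted p ranged from 0.170 to 0.999 for *Cdh1*, both in edgeR, and from 0.155 in edgeR to 0.9999 in DESeq2 for *Cdh3*. Both lowest values came from edgeR with crossed replicate numbers, a pairing chosen after seeing the data. Among the planned settings with all 4 libraries, the lowest was 0.449 for *Cdh1* in limma after quantile normalization. For *Cdh3* it was 0.327 in limma without the variance trend.

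The number of genes called among all 20197 was 0 in limma, 118 in DESeq2 and 106 in edgeR with the replicate block. The cause was not tested. Whether the replicate numbers pair the samples is not settled by the labels, and samples sharing a number deviated in opposite directions (r = -0.42 across 12902 genes, which are not independent replicates). Crossed numbers, a pairing chosen after seeing the data, gave 733 genes in edgeR and 0 in limma. The limma replicate block called 0 genes, with adjusted p of 0.871 for *Cdh1* and 0.878 for *Cdh3*.

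With the median transcript length in place of the exon union, levels per kilobase were 23279 for *Vim*, 20251 for *Ctnnb1*, 4625 for *Epcam*, 1520 for *Cdh1* and 112 for *Ctnnd1*, in the same order of means, with *Vim* and *Ctnnb1* overlapping over the libraries. This alternative divides by shorter lengths. The *Vim* to *Cdh1* log2 ratio differed by 0.18 between the groups, and by -0.07 to 0.42 on leaving out each library. Depth limits *Cdh3*, with 23 to 49 reads per library.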
